A study of Rattus norvegicus with 47 samples.

Results

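Ion channel genes other than those of the epithelial sodium channel were followed in the kidney cortex of rats given lithium, with or without amiloride. The members were the genes whose symbols mark a potassium channel (Kcn), chloride channel (Clcn, Clic), voltage-gated calcium channel (Cacn), Trp channel of the C, M, V or P branch, Hcn channel, anoctamin (Ano) or voltage-gated sodium channel (Scn) in any of the authors' 9 tables of genes that differed between groups. *Trpv6* was left out by this rule. The rule gave 81 of the 32545 genes counted. Since the tables list a gene only when it passed their threshold, the members were chosen from measured values. The levels and folds in a comparison whose table listed a gene are therefore a description. An adjusted p is given for a gene only in the rats of another study than a study whose table listed it for the same comparison. That other study may have listed the gene too. *Kcne1* and *Cacnb3*, for instance, were listed in lithium against control by all 3 studies. For such genes a low adjusted p was part of the selection and is a description as well. Of the 81 genes, 45 were listed by the tables of 1 study, 17 by those of 2 studies and 19 by those of 3 studies.

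By family the members were 17 genes of voltage-gated potassium channels and their partners, 13 Trp genes, 8 inward rectifiers, 8 ClC genes, 8 voltage-gated calcium channel genes, 7 anoctamins, 6 Clic genes, 5 calcium- or sodium-activated potassium channels, 4 two-pore potassium channels, 3 voltage-gated sodium channel genes and 2 Hcn genes. An ion channel is a protein pore that lets selected ions cross a membrane down their gradient, and many pores gate, traffic or open only with accessory subunits. Along the nephron, apical channels set the entry or secretion of sodium, potassium, calcium and magnesium, and basolateral potassium and chloride channels set the membrane voltage and complete the exit of salt. Lithium enters collecting duct principal cells through the epithelial sodium channel, which amiloride blocks, and chronic lithium is known for loss of urinary concentration.

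Male Wistar rats of 3 separate studies were sampled after 14 days, 28 days or 6 months, each with a control group on chow, a group given lithium carbonate in chow (labelled 60 mM) and a group given the same lithium with 0.2 mM amiloride in drinking water. Rats given lithium, and not the controls, also had a salt block. Amiloride began together with lithium at 14 and 28 days, and after lithium had begun in the 6-month rats. Each library is whole cortex RNA of 1 rat, so fewer cells of a type and less RNA per cell cannot be told apart. The 47 libraries comprised 6 per group in the 14-day study, 6, 6 and 5 in the 28-day study (5 with lithium-amiloride) and 4 per group in the 6-month study, with counted reads per library of 10399818 to 15618395, 14779709 to 17554304 and 21245870 to 25415685.

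At 6 months the tables name the groups differently from the library labels. The genes listed in the table of lithium against control were all (100%) among those that differed between the libraries labelled lithium-amiloride and those labelled control. By the tables, the libraries labelled control are lithium rats, those labelled lithium are lithium-amiloride rats and those labelled lithium-amiloride are controls. Which naming is right was not tested. The tables' naming is used here for 6-month comparisons, and the label is given beside each 6-month value.

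Some libraries stood apart. The authors' tables left out 3 libraries, which are left out of the fits here: 14-day lithium-amiloride 2, and at 6 months labelled lithium 4 and labelled lithium-amiloride 4. Only the alternative with all deposited libraries, given below, uses them. The library 14-day lithium-amiloride 2 held 1976 CPM (counts per 1000000) of 4 adipocyte markers, against 35.1 to 55.6 in the other 5. Among the libraries kept, 28-day control 1 held 712 CPM of 8 principal cell markers against 367 to 522 in the other 5 controls and 595 CPM of 2 distal convoluted tubule markers against 148 to 223. It was the highest of the 6 controls for 36 of the 81 members and the lowest for 12. The matching shares of all genes are not given, so these counts are not read as particular to channel genes. The library 28-day lithium 1 held 224 CPM of adipocyte markers against 32.1 to 55.

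The summed level of the 8 principal cell markers was 513 to 733 CPM in 14-day controls, 169 to 237 with lithium and 603 to 780 with lithium-amiloride. The 28-day ranges were 367 to 712, 165 to 336 and 677 to 772 CPM, and the 6-month ranges were 544 to 638 (labelled lithium-amiloride), 248 to 458 (labelled control) and 841 to 911 CPM (labelled lithium). Of 4 distal convoluted tubule markers, only *Calb1* and *Slc8a1* had a symbol in the authors' tables of differing genes, and the others could not be followed. These 2 also summed lower with lithium, at 47.8 to 136 CPM against 243 to 674 at 14 days, 22.9 to 85.2 against 148 to 595 at 28 days and 46.3 to 71.3 (labelled control) against 221 to 391 (labelled lithium-amiloride) at 6 months. At 28 days only *Calb1* was called lower. The 6 tubular injury markers summed to 148 to 319 CPM in 14-day controls, 646 to 1476 with lithium and 435 to 638 with lithium-amiloride, and were likewise above every control at the later times. The 5 of 6 macrophage markers with a symbol in those tables summed to 29.7 to 72.3 CPM in 28-day controls, 43 to 99 with lithium and 50.2 to 120 with lithium-amiloride, and 4 of 5 were called higher with lithium and 5 of 5 with lithium-amiloride. The 7 T cell markers summed to 7.2 to 13 CPM in 14-day controls, 15.6 to 35.9 with lithium and 12.8 to 17 with lithium-amiloride. All 7 were called higher with lithium at 14 days, 1 at 28 days and 0 at 6 months. The 8 intercalated cell markers summed at 6 months to 756 to 841 CPM in controls (labelled lithium-amiloride), 1161 to 1531 with lithium (labelled control) and 1154 to 1211 with lithium-amiloride (labelled lithium), and 5 of 8 were called higher in either comparison with control. At 28 days the intercalated cell markers summed to 417 to 965 CPM in controls, 527 to 1204 with lithium and 633 to 840 with lithium-amiloride. Of these 8, 5 were called higher with lithium and 2 with lithium-amiloride at 28 days. With lithium at 14 days, 1 was called higher and 1 lower. The part these shifts have in any channel gene was not tested.

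A gene was called changed when edgeR's quasi-likelihood test gave a Benjamini-Hochberg adjusted p under 0.05 over all genes tested and the log2 fold change was at least 0.5 in size. In lithium against control at 14 days, 26 of the 75 members tested were called, where 12.1% of all genes tested were. Of these 20 were higher and 6 lower, beside 8.49% and 3.63% of all genes. At 28 days 22 of 75 were called, 18 higher and 4 lower, beside 9.07% of all genes (5.49% higher and 3.59% lower). At 6 months 16 of 74 were called, 12 higher and 4 lower, beside 7.54% (5.44% higher and 2.1% lower). In lithium-amiloride against control, 24 of 75 were called at 14 days, 18 higher and 6 lower, beside 8.32% (5.04% higher and 3.27% lower). The 28-day count was 34 of 75, 27 higher and 7 lower, beside 16.6% (9.82% higher and 6.79% lower). The 6-month count was 24 of 74, 21 higher and 3 lower, beside 7.78% (5.77% higher and 2.01% lower). In lithium-amiloride against lithium, 5 members were called at 14 days, 0 at 28 days and 4 at 6 months, beside 2.19%, 0.438% and 1.99%. At 28 days edgeR gave 13 members an unadjusted p under 0.05 in that comparison, and the DESeq2 Wald test called 2. The matching shares of all genes are not given for these last counts. Nothing is read from the counts and shares of this paragraph, because the members are by rule genes that passed in such comparisons.

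The median log2 fold change of the members in lithium-amiloride against control was 0.18, 0.40 and 0.30 at the 3 times, where the median over all genes was 0.000, 0.000 and -0.002. Nothing is read from these medians either, because the members were chosen from such comparisons. Without 28-day control 1, the calls at 28 days were 30 in lithium against control and 40 in lithium-amiloride against control. The shares of all genes called without that library are not given here, so these counts are not read as particular to channel genes.

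**Figure D1:**
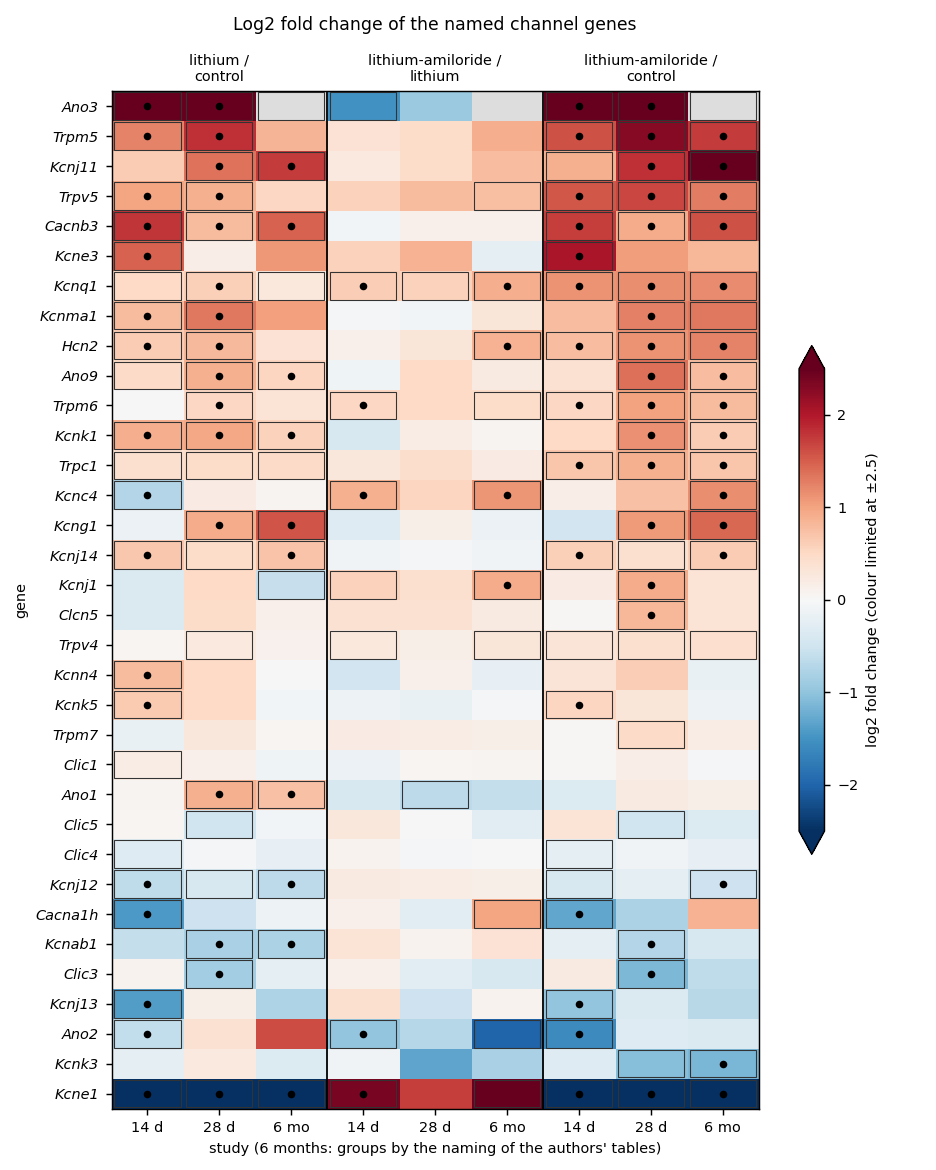
Log2 fold change (colour, limited at ±2.5) of 34 channel genes (rows) in the 9 comparisons (columns), with groups at 6 months by the tables' naming (control is labelled lithium-amiloride, lithium is labelled control, lithium-amiloride is labelled lithium). Boxes mark genes listed in that comparison's table, dots mark genes called by edgeR and grey cells were not tested. *Kcne1* has the lowest values in both comparisons with control, and *Cacnb3* and *Kcnq1* are red in lithium-amiloride against control at each time.

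The members listed in 1 study could be tested in the rats of another. In lithium against control, 12 of 38 channel genes listed at 14 days were called in the same direction at 28 days, where 16.7% of all genes listed at 14 days were. At 6 months 9 of 37 of them were, beside 16.9%. Of those listed at 28 days, 12 of 30 were called the same way at 14 days and 13 of 29 at 6 months, beside 23.3% and 19.1%. Of those listed at 6 months, 7 of 23 and 13 of 23 were called the same way at 14 and 28 days, beside 25.1% and 21.1%. In lithium-amiloride against control the counts were 12 of 30 (14-day genes at 28 days), 13 of 29 (14-day genes at 6 months), 11 of 41 and 16 of 40 (28-day genes at 14 days and 6 months) and 10 of 24 and 15 of 24 (6-month genes at 14 and 28 days), beside 29.2%, 23.3%, 12.7%, 15.6%, 23.5% and 40.1% of all listed genes. No channel gene was called in the opposite direction in any of these pairs. Summed over these pairs, the same-way calls numbered 66 for lithium against control and 77 for lithium-amiloride against control, and 38 and 23 when the 6-month groups were named by their labels. In lithium-amiloride against lithium they numbered 10: of the genes listed at 14 days, 0 of 9 were called at 28 days and 3 of 8 at 6 months, and of those listed at 6 months, 5 of 12 were called at 14 days and 0 of 12 at 28 days. The shares of all listed genes were 6.8%, 15.8%, 15% and 6.39%. Of the 2 genes listed at 28 days, 1 was called at each other time, beside 42.4% and 45.2%. The sums of 66, 77, 38, 23 and 10 count a gene once for every pair in which it was called. They are not numbers of genes or of independent tests, and the matching sums for all listed genes are not given here.

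**Figure D2:**
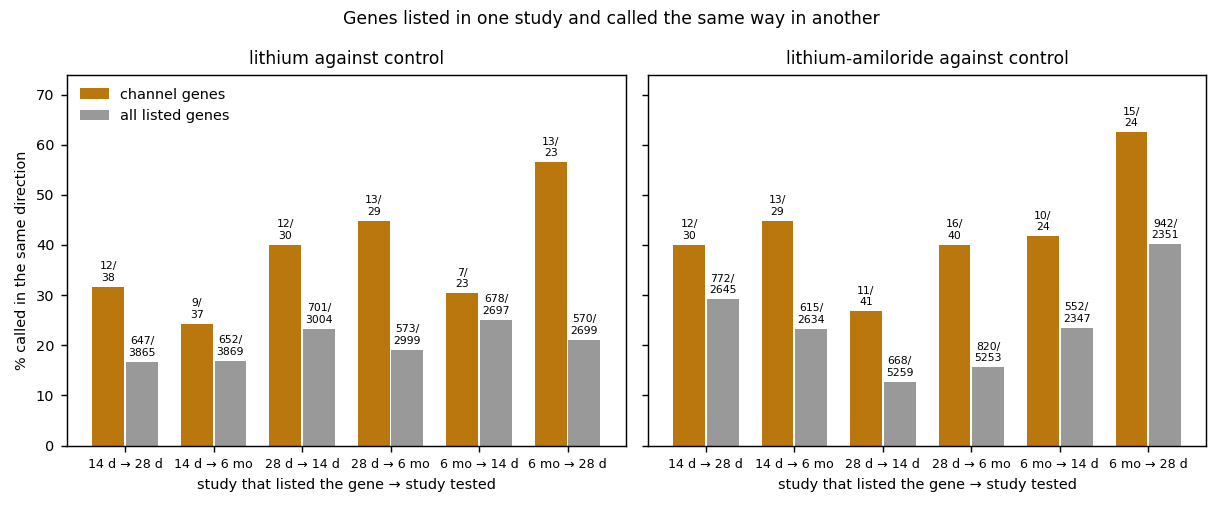
Share (%, vertical axis) of genes listed in the table of 1 study that edgeR called in the same direction in another study, for channel genes (brown) and all listed genes (grey), with the counts above each bar. The channel gene bar is higher than the grey bar in all 12 pairs, from 24.3% to 56.5% for lithium against control.

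The potassium channel pore gene *Kcnq1* and its accessory subunit *Kcne1* moved in opposite directions in lithium-amiloride against control. *Kcne1* codes for a small membrane subunit that assembles with the Kcnq1 pore and slows its opening. In 14-day controls *Kcne1* lay between 2.52 and 7.02 CPM (median 3.51), with lithium between 0 and 0.256 CPM (median 0.137), and with lithium-amiloride at 0.347, 0.756, 0.663, 1.36 and 0.569 CPM. The 3 groups did not overlap. In 28-day controls it lay between 3.15 and 5.39 CPM (median 5.13), with lithium between 0 and 0.183 CPM (median 0.0865), and with lithium-amiloride at 0.224, 0.293, 0.112, 0.16 and 0.925 CPM. At 6 months it was 6.02, 9.25 and 6.06 CPM in controls (labelled lithium-amiloride), 0.188, 0.0432, 0.0445 and 0 CPM with lithium (labelled control) and 0.52, 0.448 and 0.316 CPM with lithium-amiloride (labelled lithium). Every lithium library was thus below every control library at each time.

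The fall in *Kcne1* was the largest of the 38 named channel genes. Lithium against control gave a log2 fold change of -4.90 (SE 0.41, edgeR adjusted p = 9.4e-08) at 14 days, -5.44 (SE 0.43, edgeR adjusted p = 2.26e-07) at 28 days and -6.52 (SE 0.43, edgeR adjusted p = 3.34e-05) at 6 months. The lithium libraries held few *Kcne1* reads, with 12 counts over 6 libraries at 14 days, 10 over 6 at 28 days and 7 over 4 at 6 months, so that the size of these folds is less certain than their direction. Lithium-amiloride left *Kcne1* below control, by -2.52 (SE 0.33), -3.73 (SE 0.38) and -4.03 (SE 0.37) on the log2 scale, with edgeR adjusted p = 3.13e-05, 3.07e-06 and 6.72e-05. Against lithium alone *Kcne1* was 2.38 higher (SE 0.51, edgeR adjusted p = 0.0132) at 14 days, a call lost without lithium-amiloride 5 (adjusted p = 0.0514). The same difference was 1.72 (SE 0.59, adjusted p = 0.298) at 28 days and 2.49 (SE 0.60, adjusted p = 0.0531) at 6 months, neither of which passed. In the library 28-day lithium-amiloride 5, *Kcne1* was 0.925 CPM against 0.112 to 0.293 in the other 4.

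The RefSeq promoter table (assembly GRCr8) held 54 of the 81 members, and 3 upstream stretches of 250 bases are printed for a gene that was called lower (*Kcne1*) and genes that were called higher (*Cacnb3*, *Trpv5*) in lithium-amiloride against control in all 3 studies. Each runs 5′ to 3′ and ends at the base before the annotated transcript start. Capitals mark a match to any of 4 motifs sought: TATAAA on the printed strand, and TGANTCA (AP-1), CTTTGA (TCF/LEF core) and TGACGTCA (CRE) on both strands, with any overlaps counted.
Kcne1 (chr11:45077034-45077283, minus strand): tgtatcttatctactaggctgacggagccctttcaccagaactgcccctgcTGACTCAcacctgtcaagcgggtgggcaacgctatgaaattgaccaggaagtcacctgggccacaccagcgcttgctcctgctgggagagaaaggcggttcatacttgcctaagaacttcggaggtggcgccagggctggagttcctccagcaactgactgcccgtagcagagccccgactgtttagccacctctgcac
Cacnb3 (chr7:131666301-131666550, plus strand): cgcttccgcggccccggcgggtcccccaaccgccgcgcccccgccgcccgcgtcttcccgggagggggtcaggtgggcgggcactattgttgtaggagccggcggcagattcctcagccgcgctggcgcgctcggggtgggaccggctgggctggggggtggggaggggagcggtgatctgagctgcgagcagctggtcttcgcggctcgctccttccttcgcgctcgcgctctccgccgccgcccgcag
Trpv5 (chr4:71529383-71529632, minus strand): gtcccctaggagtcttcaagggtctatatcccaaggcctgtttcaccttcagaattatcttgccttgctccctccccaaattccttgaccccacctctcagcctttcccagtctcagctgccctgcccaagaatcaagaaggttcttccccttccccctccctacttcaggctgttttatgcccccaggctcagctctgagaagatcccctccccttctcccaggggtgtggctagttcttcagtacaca
The stretch of *Kcne1* held a match to TGANTCA that begins 199 bases before the start, and it was the only one of the 54 members' stretches with this motif (1.85%, against 6.36% of 27457 promoters). The stretches of *Cacnb3* and *Trpv5* held none of the 4 motifs. Over the 54 members, TATAAA was in 5.56%, CTTTGA in 9.26% and TGACGTCA in 1.85%, against 8.38%, 13.8% and 1.7% of all promoters of this length. A match is a description of letters and not of a bound site.

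*Kcnq1*, the pore that Kcne1 and Kcne3 modify, was the only member listed in all 9 tables. At 14 days it lay between 19.3 and 34.5 CPM in controls (median 26.2), between 28.2 and 41 CPM with lithium (median 39.1), and at 54.9, 57.5, 57.1, 63.6 and 53.2 CPM with lithium-amiloride. At 28 days the controls ran from 19.6 to 34.1 CPM (median 21.7) and the lithium rats from 26.4 to 51.2 CPM (median 33.5), with 46, 52.4, 54.6, 56.3 and 53 CPM under lithium-amiloride. At 6 months *Kcnq1* was 43.5, 48.2 and 43.3 CPM in controls (labelled lithium-amiloride), 56.3, 50.4, 51.6 and 57.7 CPM with lithium (labelled control) and 105, 102 and 96.3 CPM with lithium-amiloride (labelled lithium). Lithium-amiloride was above control in every library of each study, and above lithium in every library at 14 days and 6 months.

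Lithium-amiloride against control gave *Kcnq1* log2 fold changes of 1.12 (SE 0.11), 1.16 (SE 0.15) and 1.18 (SE 0.07) at the 3 times, with edgeR adjusted p = 1.38e-06, 3.8e-05 and 6.67e-06. Against lithium it was 0.62 higher (SE 0.11, edgeR adjusted p = 0.00371) at 14 days and 0.91 higher (SE 0.06, edgeR adjusted p = 0.000212) at 6 months, and the 28-day difference of 0.57 (SE 0.15, adjusted p = 0.121) did not pass. Lithium against control was 0.50, 0.59 and 0.27 on the log2 scale, and the 28-day rise (edgeR adjusted p = 0.0104) fell under the fold threshold without lithium 4, at 0.46. The 14-day and 6-month values were not called. Across the 3 studies *Kcnq1* thus rose from control to lithium-amiloride in the same rats in which *Kcne1* was lower. *Kcne3*, another accessory subunit of the same pore that holds it open in intestinal cells, was listed at 14 days only, where its mean was 0.473 CPM in controls, 1.34 CPM with lithium and 2 CPM with lithium-amiloride. In the 28-day rats its difference between lithium-amiloride and control was 1.04 on the log2 scale (SE 0.41, edgeR adjusted p = 0.0532), and at 6 months 0.83 (SE 0.38, edgeR adjusted p = 0.166).

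**Figure D3:**
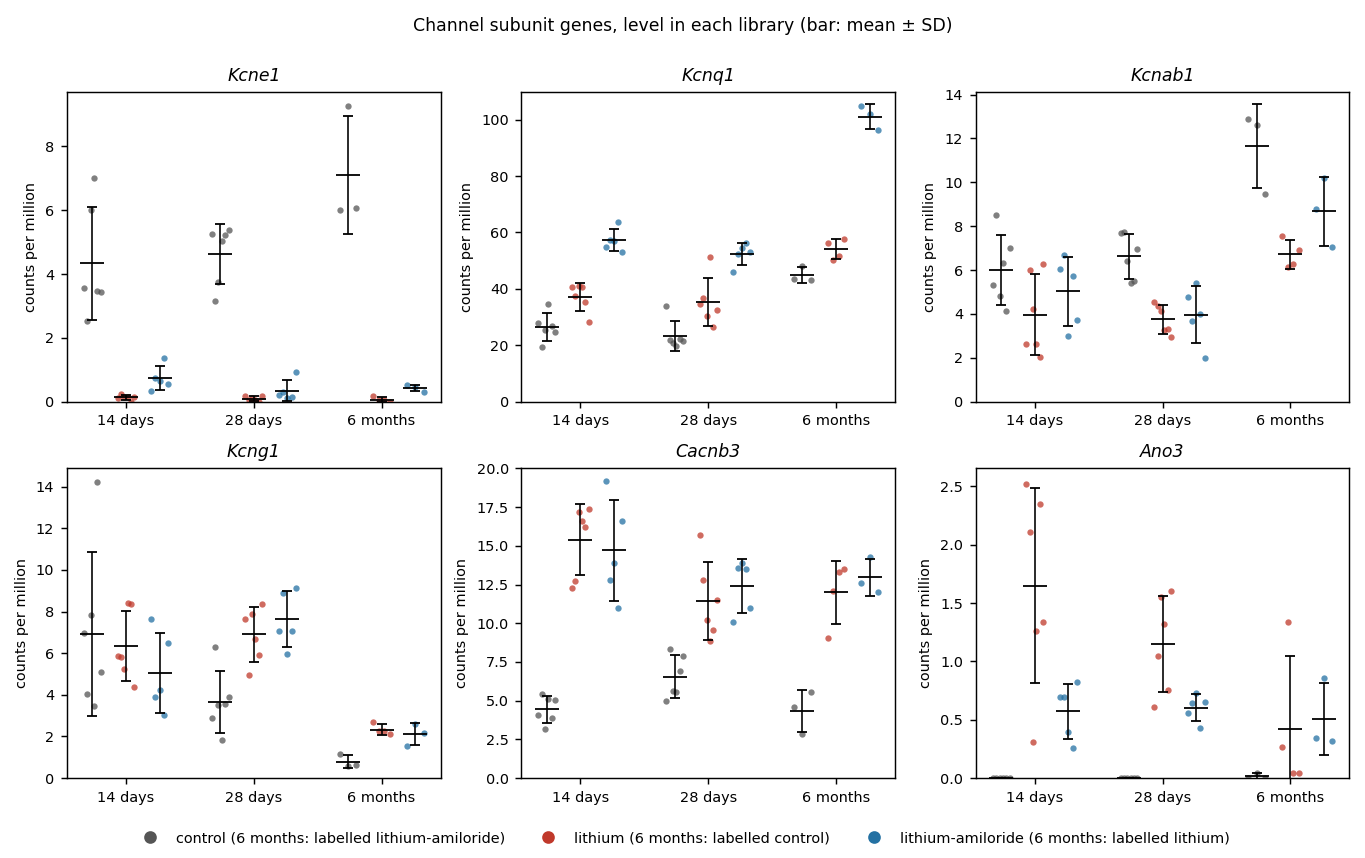
Level (CPM, vertical axis from 0) of 6 channel subunit genes in each library kept (points), with the mean and SD of each group (black), at the 3 times. The 6-month labels are given in the legend. *Kcne1* reaches no more than 0.256 CPM in any lithium library while its control libraries start at 2.52 CPM, and *Kcnq1* is highest with lithium-amiloride.

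*Clcn5*, the endosomal chloride-proton exchanger of the proximal tubule, was listed in lithium-amiloride against control at 28 days (24.7 to 44.2 CPM in the means), and in the rats of the other studies it gave log2 differences of 0.03 (SE 0.18, edgeR adjusted p = 0.941) at 14 days and 0.35 (SE 0.23, edgeR adjusted p = 0.327) at 6 months.

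Among voltage-gated calcium channel genes, *Cacnb3* rose at every time. It codes for a cytoplasmic beta subunit that carries the pore to the membrane. In 14-day controls it lay between 3.15 and 5.46 CPM (median 4.56), with lithium between 12.3 and 17.4 CPM (median 16.4) and with lithium-amiloride at 19.2, 12.8, 13.9, 11 and 16.6 CPM. At 28 days the controls ran from 4.99 to 8.33 CPM (median 6.29), the lithium rats from 8.87 to 15.7 CPM (median 10.8) and the lithium-amiloride rats were at 10.1, 13.6, 13.9, 13.5 and 11 CPM. At 6 months it was 4.62, 2.83 and 5.54 CPM in controls (labelled lithium-amiloride), 9.08, 12.1, 13.3 and 13.5 CPM with lithium (labelled control) and 12.6, 14.3 and 12 CPM with lithium-amiloride (labelled lithium). Both treated groups lay above every control at each time.

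The log2 fold change of *Cacnb3* in lithium against control was 1.79 (SE 0.16, edgeR adjusted p = 1.35e-07) at 14 days, 0.80 (SE 0.15, edgeR adjusted p = 0.00228) at 28 days and 1.48 (SE 0.21, edgeR adjusted p = 0.00158) at 6 months. Lithium-amiloride against lithium was listed for it in no table, with differences of -0.06, 0.12 and 0.12. *Cacna1h*, a pore of low-voltage-activated T-type channels, was listed as lower at 14 days, where lithium rats held 2.58 to 6.27 CPM (median 5.74) against 8.99 to 20.4 CPM (median 13) in controls. In the other rats the difference did not pass, and lithium against control was -0.51 (SE 0.34, edgeR adjusted p = 0.284) at 28 days and -0.12 (SE 0.32, edgeR adjusted p = 0.829) at 6 months. In the 6-month rats it was instead listed as higher with lithium-amiloride (labelled lithium), at 12.1, 23.3 and 16.9 CPM, than with lithium (labelled control), at 6.83, 6.95, 11.8 and 9.98 CPM. Of the other 6 calcium channel genes, none was listed by the tables of more than 1 study.

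*Trpv5* codes for the apical calcium entry channel of the distal convoluted and connecting tubule. At 14 days it lay between 6.81 and 21.3 CPM in controls (median 17.2), between 17.8 and 44.2 CPM with lithium (median 36) and at 38.3, 47.7, 47.3, 50.9 and 55 CPM with lithium-amiloride. The 28-day range was 4.43 to 17.2 CPM in controls (median 6.86) and 8.03 to 21.4 CPM with lithium (median 15.9), with 34, 29.7, 30, 21.1 and 20.5 CPM under lithium-amiloride. At 6 months *Trpv5* was 9.13, 15 and 10.1 CPM in controls (labelled lithium-amiloride), 20.5, 18.1, 12.5 and 13.4 CPM with lithium (labelled control) and 23.1, 31.3 and 27.4 CPM with lithium-amiloride (labelled lithium). Every lithium-amiloride library was above every control library at each time, while lithium libraries overlapped with control libraries.

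Lithium-amiloride against control gave *Trpv5* log2 fold changes of 1.56 (SE 0.25), 1.67 (SE 0.29) and 1.27 (SE 0.22), with edgeR adjusted p = 0.000196, 0.000483 and 0.00422. Lithium against control was 0.98 higher (SE 0.24, edgeR adjusted p = 0.005) at 14 days and 0.51 (SE 0.21, edgeR adjusted p = 0.125) at 6 months. The 28-day value of 0.88 (SE 0.28, edgeR adjusted p = 0.0349) lost its call without any 1 of controls 2 to 6 or of lithium 1, 2, 3, 4 or 6 (adjusted p = 0.0533 to 0.0776). In the same lithium rats *Calb1* and *Slc8a1*, markers of the segment where Trpv5 works, summed to less than in controls, as given above.

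*Trpm6*, the magnesium entry channel of the distal convoluted tubule, had means of 32.3, 32.3 and 46.1 CPM in control, lithium and lithium-amiloride rats at 14 days, 21.8, 31.1 and 43.8 CPM at 28 days and 30.9 (labelled lithium-amiloride), 39.1 (labelled control) and 53.5 CPM (labelled lithium) at 6 months. It rose in lithium-amiloride against control at 28 days, by 1.0 on the log2 scale (SE 0.15, edgeR adjusted p = 0.000157), and at 6 months, by 0.80 (SE 0.12, edgeR adjusted p = 0.00187), without overlap of these groups. The 14-day difference was 0.51 (SE 0.13, edgeR adjusted p = 0.0113), and without control 2, control 4, lithium-amiloride 1 or lithium-amiloride 3 it was under the fold threshold. Against lithium the 14-day value of 0.51 (edgeR adjusted p = 0.0383) lost its call without lithium 1, 2, 3 or 6 or lithium-amiloride 1, 3 or 5 (adjusted p = 0.0535 to 0.0953). Its relative *Trpm7*, a magnesium channel with a kinase domain in most cells, was listed only at 28 days and gave 0.02 (SE 0.10, edgeR adjusted p = 0.923) at 14 days and 0.18 (SE 0.13, edgeR adjusted p = 0.385) at 6 months in lithium-amiloride against control.

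*Trpv4*, a cation channel opened by cell swelling, differed by small but regular amounts. Lithium-amiloride against control was 0.32 (SE 0.07), 0.40 (SE 0.08) and 0.42 (SE 0.09) on the log2 scale at the 3 times, with edgeR adjusted p = 0.00231, 0.00165 and 0.0127, all under the fold threshold. *Trpc1*, a receptor-operated cation channel, had means of 7 CPM in controls, 9.28 CPM with lithium and 11.3 CPM with lithium-amiloride at 14 days, 5.31, 7.26 and 9.77 CPM at 28 days and 5.88 (labelled lithium-amiloride), 8.15 (labelled control) and 9.4 CPM (labelled lithium) at 6 months. It rose in lithium-amiloride against control by 0.69 (SE 0.10, edgeR adjusted p = 6.21e-05), 0.88 (SE 0.13, edgeR adjusted p = 0.000113) and 0.69 (SE 0.14, edgeR adjusted p = 0.00851).

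Other Trp genes were low or listed less often. *Trpm5*, the calcium-activated cation channel of taste cells and the gene next to *Kcnq1* in RefSeq, rose in lithium-amiloride against control from means of 0.353 to 1.1 CPM at 14 days, 0.143 to 0.796 CPM at 28 days and 0.299 (labelled lithium-amiloride) to 1.01 CPM (labelled lithium) at 6 months. The log2 fold changes of *Trpm5* were 1.60 (SE 0.39), 2.28 (SE 0.49) and 1.75 (SE 0.35), with edgeR adjusted p = 0.0078, 0.00211 and 0.00785. Its rise with lithium at 14 days (1.24, edgeR adjusted p = 0.024) lost its call without control 3 (adjusted p = 0.0578) or lithium 6 (adjusted p = 0.0505).

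**Figure D4:**
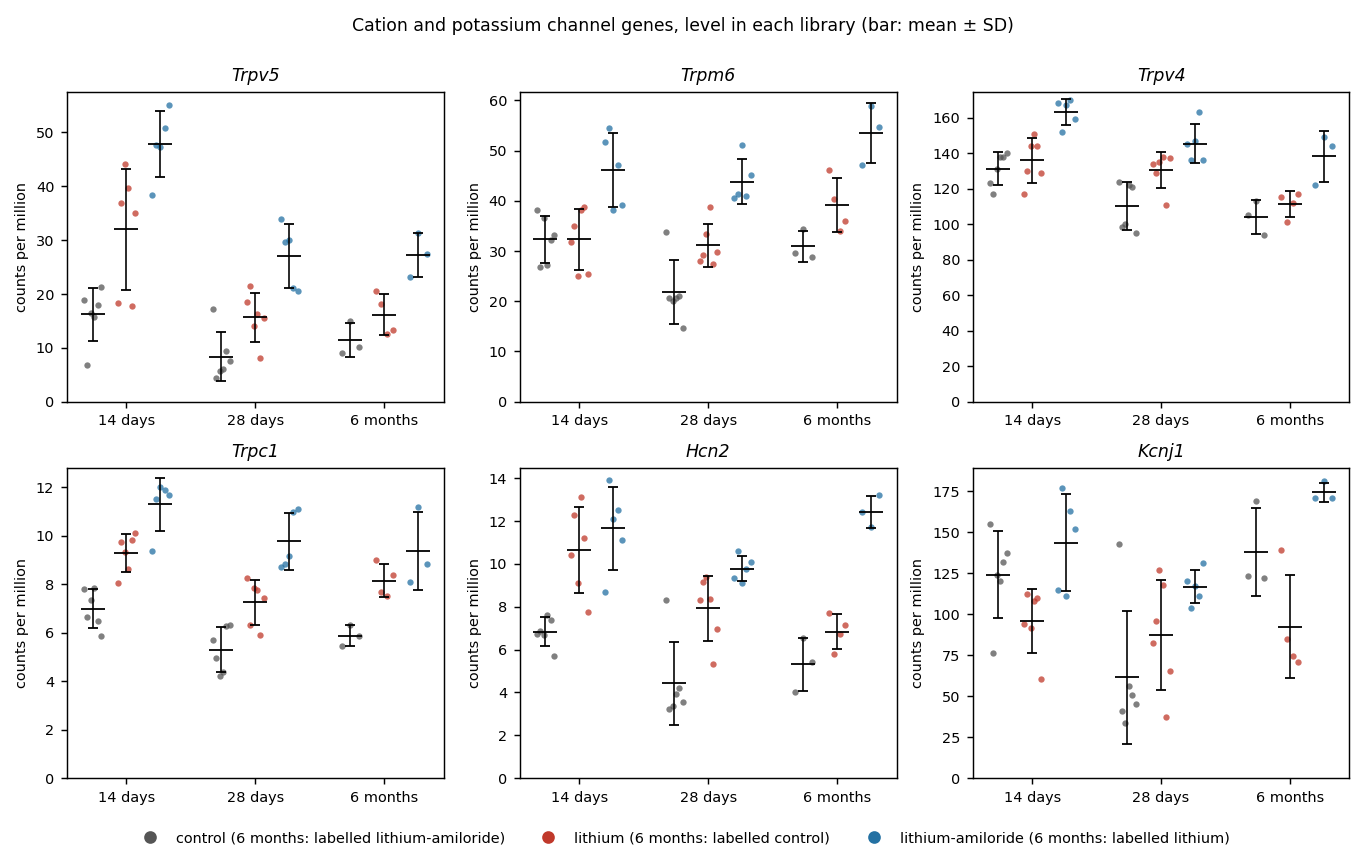
Level (CPM, vertical axis from 0) of 6 cation and potassium channel genes in each library kept (points), with the mean and SD of each group (black), at the 3 times; the 6-month labels are given in the legend. *Trpv5*, *Trpm6*, *Trpv4*, *Trpc1* and *Hcn2* have their highest mean with lithium-amiloride at each time, and 1 control library at 28 days stands at 143 CPM for *Kcnj1*.

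The inward rectifier potassium channels moved in different directions. *Kcnj1* codes for ROMK, the apical potassium channel of the thick ascending limb and collecting duct. At 14 days it lay between 76.4 and 155 CPM in controls (median 128), between 60.3 and 112 CPM with lithium (median 101) and at 115, 177, 111, 163 and 152 CPM with lithium-amiloride. At 6 months it was 123, 169 and 122 CPM in controls (labelled lithium-amiloride), 139, 84.7, 74.7 and 71.1 CPM with lithium (labelled control) and 171, 181 and 171 CPM with lithium-amiloride (labelled lithium). Lithium-amiloride lay above lithium in every library at 6 months; at 14 days the 2 groups overlapped. The difference between them was 0.58 (SE 0.17, edgeR adjusted p = 0.0712) at 14 days and 0.92 (SE 0.21, edgeR adjusted p = 0.0432) at 6 months. The 6-month call was lost when any 1 of these libraries was left out: labelled control 2, 3 and 4, labelled lithium 1, 2 and 3 and labelled lithium-amiloride 1 and 3 (adjusted p = 0.0555 to 0.156). At 28 days *Kcnj1* was 143 CPM in control 1 and 33.4 to 56.1 CPM in the other 5 controls, against 120, 104, 117, 111 and 131 CPM with lithium-amiloride. The 5 thick ascending limb markers summed to 960 to 1683 CPM in 28-day controls, 1338 to 2866 with lithium and 1878 to 2950 with lithium-amiloride, and 3 of 5 were called higher in either comparison with control. Their part in the *Kcnj1* values was not tested.

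*Kcnj11*, the pore of ATP-sensitive potassium channels, was low, and rose with both treatments at 28 days and 6 months. Its lithium-amiloride values at 28 days were 2.97, 2.4, 3.8, 2.13 and 4.24 CPM, against 0.376 to 1.49 CPM in controls (median 0.856) and 1.51 to 3.3 CPM with lithium (median 2.1). At 6 months it was 0.292, 0.228 and 0.568 CPM in controls (labelled lithium-amiloride), 1.73, 1.29, 1.16 and 0.681 CPM with lithium (labelled control) and 2.43, 2.28 and 1.54 CPM with lithium-amiloride (labelled lithium). The treated groups did not overlap with the controls at either time. Lithium-amiloride against control gave log2 fold changes of 1.82 (SE 0.33, edgeR adjusted p = 0.000649) at 28 days and 2.52 (SE 0.41, edgeR adjusted p = 0.0026) at 6 months for *Kcnj11*, and 0.89 (SE 0.31, edgeR adjusted p = 0.0568) at 14 days. With lithium at 14 days the difference was 0.64 (SE 0.31, edgeR adjusted p = 0.132), from 1.38 to 2.18 CPM in the means, and the groups overlapped. Lithium against control was 1.35 (SE 0.32, edgeR adjusted p = 0.00866) at 28 days and 1.74 (SE 0.41, edgeR adjusted p = 0.0162) at 6 months, where the call was lost without labelled lithium-amiloride 1 (adjusted p = 0.0737) or 2 (adjusted p = 0.065). The left-out library 14-day lithium-amiloride 2, rich in adipocyte markers, held 5.8 CPM.

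*Kcnj12*, which codes for the strong inward rectifier Kir2.2, fell with lithium. In 14-day controls it lay between 59.3 and 74.3 CPM (median 64.6) and with lithium between 38.1 and 47.3 CPM (median 41.9), without overlap, and lithium-amiloride gave 48.2, 55.3, 52.6, 46.3 and 43.3 CPM. At 6 months it was 62.6, 62.4 and 47.4 CPM in controls (labelled lithium-amiloride), 40.8, 33.6, 36.8 and 34 CPM with lithium (labelled control) and 38.6, 42.7 and 38.6 CPM with lithium-amiloride (labelled lithium). Lithium against control was -0.63 (SE 0.07, edgeR adjusted p = 3.26e-06) at 14 days and -0.65 (SE 0.10, edgeR adjusted p = 0.00271) at 6 months. The 28-day difference of -0.41 (SE 0.12, edgeR adjusted p = 0.024) was under the fold threshold for *Kcnj12*. With the left-out libraries added, the 6-month adjusted p was 0.0634.

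*Kcnj14*, which codes for Kir2.4, was higher with lithium, with means of 3.46 and 5.6 CPM in control and lithium rats at 14 days, 2.87 and 3.92 CPM at 28 days and 1.82 (labelled lithium-amiloride) and 2.99 CPM (labelled control) at 6 months. The log2 fold changes were 0.68 (SE 0.16, edgeR adjusted p = 0.00439), 0.45 (SE 0.14, edgeR adjusted p = 0.0381) and 0.72 (SE 0.14, edgeR adjusted p = 0.00805), of which the 28-day value was under the fold threshold. With the left-out libraries added, the 6-month adjusted p of *Kcnj14* was 0.203. *Kcnj13*, which codes for Kir7.1, was listed at 14 days only, at 0.634 to 1.55 CPM with lithium (median 1.07) against 2.18 to 3.36 CPM in controls (median 2.95), and lithium against control was 0.14 (SE 0.35, edgeR adjusted p = 0.804) at 28 days and -0.78 (SE 0.30, edgeR adjusted p = 0.0984) at 6 months.

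Of the 2-pore potassium channels, which set a leak conductance, *Kcnk1* (TWIK-1) rose with lithium. It lay between 13.5 and 25 CPM in 14-day controls (median 18.7) and between 25.8 and 52 CPM with lithium (median 31.7), and between 8.33 and 13.5 CPM (median 10) and 17.5 and 26.7 CPM (median 18.6) at 28 days, without overlap at either time. The log2 fold changes of *Kcnk1* were 0.91 (SE 0.20, edgeR adjusted p = 0.00183) and 0.96 (SE 0.13, edgeR adjusted p = 8.63e-05). At 6 months the value was 0.58 (SE 0.18, edgeR adjusted p = 0.0464), and the call was lost without any 1 of 9 libraries: labelled control 1, 2 or 4, labelled lithium 1, 2 or 3, or labelled lithium-amiloride 1, 2 or 3 (adjusted p = 0.0564 to 0.186). *Kcnk5* (TASK-2, of the proximal tubule basolateral membrane) was listed at 14 days only, with 128 CPM in lithium 4 against 55.6 to 75.8 CPM in the other 5 lithium libraries. Without lithium 4 the 14-day log2 difference of 0.66 was under the fold threshold, at 0.46. In the other studies it was 0.49 (SE 0.21, edgeR adjusted p = 0.106) at 28 days and -0.07 (SE 0.10, edgeR adjusted p = 0.696) at 6 months.

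*Kcnk3*, the acid-sensitive leak channel TASK-1, was listed in lithium-amiloride against control at 28 days and 6 months. It was 2.3, 2.17, 1.57, 1.44 and 1.25 CPM with lithium-amiloride at 28 days against 1.63 to 5.39 CPM in controls (median 4.05), and 1.56, 1.34 and 1.34 CPM (labelled lithium) against 2.33, 2.42 and 4.73 CPM (labelled lithium-amiloride) at 6 months. The log2 differences were -1.06 (SE 0.47, edgeR adjusted p = 0.0851) and -1.15 (SE 0.32, edgeR adjusted p = 0.0364), and the 6-month call was lost without labelled control 2, labelled lithium 1, 2 or 3, or labelled lithium-amiloride 3 (adjusted p = 0.0514 to 0.118). *Kcnk3* was high where adipocyte markers were high, at 12.2 CPM in 28-day lithium 1 and 129 CPM in the left-out library 14-day lithium-amiloride 2, which held 224 and 1976 CPM of those markers. The part of adipose tissue in these values was not tested.

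*Kcnma1*, the pore of the large-conductance channel of flow-induced potassium secretion, had means of 1.02 and 1.82 CPM in control and lithium rats at 14 days, 0.659 and 1.7 CPM at 28 days and 1.4 (labelled lithium-amiloride) and 2.82 CPM (labelled control) at 6 months. Its log2 differences were 0.80 (SE 0.28, edgeR adjusted p = 0.041), 1.32 (SE 0.43, edgeR adjusted p = 0.0385) and 1.02 (SE 0.42, edgeR adjusted p = 0.121). The 14-day call was lost without control 2, 3 or 4 or lithium 4 or 5 (adjusted p = 0.0718 to 0.115), and the 28-day call without controls 2 to 6 or lithium 2, 3 or 4 (adjusted p = 0.0636 to 0.104). *Kcnn4*, the intermediate-conductance channel, was listed only at 14 days (1.76 and 3.04 CPM in the means of control and lithium rats), with 0.49 (SE 0.25, edgeR adjusted p = 0.177) at 28 days and 0.01 (SE 0.29, edgeR adjusted p = 0.987) at 6 months.

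*Kcnc4*, a fast voltage-gated pore (Kv3.4), was highest with lithium-amiloride at 6 months. At 6 months it was 15.2, 14.3 and 15.9 CPM with lithium-amiloride (labelled lithium), 10.7, 4.88, 5.21 and 7.13 CPM with lithium (labelled control) and 5.15, 7.57 and 7.62 CPM in controls (labelled lithium-amiloride), so that the lithium-amiloride libraries were the highest. Against lithium *Kcnc4* was 0.89 higher (SE 0.24, edgeR adjusted p = 0.0495) at 14 days and 1.11 higher (SE 0.24, edgeR adjusted p = 0.0369) at 6 months, and neither call held without each library. The 14-day call was lost without control 1, 3, 4, 5 or 6, lithium 1, 2, 3, 5 or 6, or lithium-amiloride 3, 5 or 6 (adjusted p = 0.0535 to 0.168), and the 6-month call without labelled control 2, 3 or 4 or labelled lithium 1, 2 or 3 (adjusted p = 0.0849 to 0.121). The 28-day difference was 0.54 (SE 0.34, edgeR adjusted p = 0.549).

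Modifier subunits also differed. *Kcng1*, a silent subunit that alters other voltage-gated pores, rose in lithium against control by 0.92 (SE 0.22, edgeR adjusted p = 0.00796) at 28 days, where the groups ran from 1.81 to 6.3 and from 4.95 to 8.38 CPM. At 6 months *Kcng1* was 1.17, 0.593 and 0.615 CPM in controls (labelled lithium-amiloride) and 2.7, 2.24, 2.27 and 2.12 CPM with lithium (labelled control), a log2 fold change of 1.57 (SE 0.27, edgeR adjusted p = 0.00428). *Kcnab1*, a cytoplasmic beta subunit, fell with lithium by 0.82 (SE 0.19, edgeR adjusted p = 0.00705) at 28 days and by 0.79 (SE 0.15, edgeR adjusted p = 0.00664) at 6 months on the log2 scale, from means of 6.62 to 3.76 CPM and 11.7 (labelled lithium-amiloride) to 6.72 CPM (labelled control). At 14 days *Kcng1* gave -0.14 (SE 0.30, edgeR adjusted p = 0.776) and *Kcnab1* -0.59 (SE 0.28, edgeR adjusted p = 0.121).

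*Hcn2*, a channel opened by hyperpolarization, rose with lithium-amiloride in all 3 studies. It lay between 5.72 and 7.63 CPM in 14-day controls (median 6.82), between 7.75 and 13.1 CPM with lithium (median 10.8) and at 8.68, 13.9, 12.1, 12.5 and 11.1 CPM with lithium-amiloride. At 28 days control 1 stood at 8.3 CPM and the other 5 controls between 3.23 and 4.22 CPM, with lithium-amiloride at 9.35, 10.6, 9.11, 9.74 and 10.1 CPM. At 6 months *Hcn2* was 4.03, 6.52 and 5.4 CPM in controls (labelled lithium-amiloride), 7.73, 5.78, 6.72 and 7.13 CPM with lithium (labelled control) and 12.4, 11.7 and 13.2 CPM with lithium-amiloride (labelled lithium). Lithium-amiloride was above control without overlap at each time, with log2 fold changes of 0.77 (SE 0.14), 1.12 (SE 0.21) and 1.24 (SE 0.17) and edgeR adjusted p = 0.000616, 0.000778 and 0.000782. Lithium against control was 0.64 (SE 0.13, edgeR adjusted p = 0.00138) at 14 days, 0.82 (SE 0.20, edgeR adjusted p = 0.00976) at 28 days and 0.37 (SE 0.16, edgeR adjusted p = 0.131) at 6 months.

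Anoctamins are membrane proteins that work as calcium-activated chloride channels or lipid scramblases. *Ano3* had no read in any of the 6 controls at 14 days or the 6 controls at 28 days. With lithium it lay between 0.309 and 2.52 CPM (median 1.73) at 14 days and between 0.612 and 1.6 CPM (median 1.18) at 28 days, and with lithium-amiloride at 0.694, 0.693, 0.398, 0.26 and 0.822 CPM and 0.56, 0.644, 0.727, 0.426 and 0.653 CPM. Against a floor of 3 counts over the summed reads of the controls, *Ano3* was at least 42.4-fold higher with lithium at 14 days and at least 36.9-fold higher at 28 days (edgeR adjusted p = 4.59e-05 and 9.31e-06), and at least 14.8-fold and 19.4-fold higher with lithium-amiloride (edgeR adjusted p = 0.00237 and 5.14e-05). At 6 months *Ano3* was too low to be tested, at 0.263, 1.34, 0.0445 and 0.0401 CPM with lithium (labelled control), 0.347, 0.859 and 0.316 CPM with lithium-amiloride (labelled lithium) and 0, 0.0456 and 0 CPM in controls (labelled lithium-amiloride).

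*Ano1*, the calcium-activated chloride channel of many epithelia, rose in lithium against control at 28 days, from 3.46 to 7.37 CPM in controls (median 5.07) to 7.45 to 12.7 CPM (median 9.35), a log2 fold change of 0.89 (SE 0.17, edgeR adjusted p = 0.00221). At 6 months *Ano1* was 4.18, 4.01 and 6.82 CPM in controls (labelled lithium-amiloride), 7.13, 7.68, 8.76 and 9.5 CPM with lithium (labelled control) and 5.33, 4.33 and 6.84 CPM with lithium-amiloride (labelled lithium), and lithium against control was 0.73 (SE 0.21, edgeR adjusted p = 0.0398). That 6-month call was lost on leaving out any 1 of labelled control 2, 3 and 4, labelled lithium 1 and labelled lithium-amiloride 1 and 2 (adjusted p = 0.0562 to 0.155). At 14 days the difference was 0.06 (SE 0.18, edgeR adjusted p = 0.834). Lithium-amiloride against lithium was -0.41 (SE 0.19, edgeR adjusted p = 0.276) at 14 days and -0.59 (SE 0.21, edgeR adjusted p = 0.173) at 6 months for *Ano1*.

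*Ano2* was listed as lower with lithium-amiloride (1.18, 1.89, 1.06, 1.56 and 1.64 CPM) than with lithium (1.99 to 3.87 CPM, median 2.99) at 14 days, and its log2 difference there, which the 6-month table lists as well, was -0.99 (SE 0.20, edgeR adjusted p = 0.00753). The 28-day and 6-month differences were -0.72 (SE 0.38, edgeR adjusted p = 0.484) and -2.0 (SE 0.64, edgeR adjusted p = 0.13). *Ano9* rose in lithium-amiloride against control at 28 days by 1.38 (SE 0.18, edgeR adjusted p = 5.35e-05), from a mean of 2.32 to 6.07 CPM, and at 6 months by 0.77 (SE 0.16, edgeR adjusted p = 0.0099), from 2.87 (labelled lithium-amiloride) to 4.85 CPM (labelled lithium). The 14-day difference for *Ano9* was 0.38 (SE 0.16, edgeR adjusted p = 0.107).

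Each of the chloride intracellular channel (Clic) genes was listed by the tables of 1 study only. *Clic5*, a podocyte protein in the glomerulus, was listed at 28 days, at 112 to 133 CPM with lithium (median 120) against 120 to 194 CPM in controls (median 183), and lithium against control was 0.04 (SE 0.13, edgeR adjusted p = 0.832) at 14 days and -0.06 (SE 0.14, edgeR adjusted p = 0.821) at 6 months. The 5 podocyte markers summed to 473 to 606 CPM with lithium and 593 to 1097 CPM in controls at 28 days, and their part in the *Clic5* and *Clic3* values there was not tested. *Clic3* gave 0.09 (SE 0.16, edgeR adjusted p = 0.699) and -0.24 (SE 0.23, edgeR adjusted p = 0.519) in the other studies, *Clic4* -0.02 (SE 0.10, edgeR adjusted p = 0.904) and -0.21 (SE 0.09, edgeR adjusted p = 0.142) at 28 days and 6 months, and *Clic1* 0.12 (SE 0.07, edgeR adjusted p = 0.197) and -0.11 (SE 0.07, edgeR adjusted p = 0.293).

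Genes that serve channels but lie outside the rule were followed in a list of 42, of which 34 had a symbol in the tables. These are subunits, regulators and store-operated and intracellular channels. The tables hold only genes that differed, so these 34 were also chosen from measured values. Nothing is read from their counts beside the shares of all genes. In lithium against control 2 rose and 2 fell at 14 days, 2 rose and 1 fell at 28 days and 1 rose at 6 months, with list medians of -0.02, 0.12 and 0.04 on the log2 scale, beside 12.1%, 9.07% and 7.54% of all genes called. In lithium-amiloride against control 3 rose at 14 days, 5 rose and 2 fell at 28 days and 5 rose at 6 months, beside 8.32%, 16.6% and 7.78%. In lithium-amiloride against lithium 3, 0 and 4 rose, beside 2.19%, 0.438% and 1.99%. *Itpr3*, an intracellular calcium release channel, was called higher at all 3 times. *Sgk1* and *Wnk1*, kinases that regulate sodium and potassium channels of the distal nephron, were lower with lithium at 14 days and higher with lithium-amiloride than with lithium at 14 days and 6 months.

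The values on both sides of the listing threshold are given as a description. The genes were picked by edgeR adjusted p and not by fold, as the listed gene with the highest and the unlisted gene with the lowest. In each pair below the listed gene had the higher edgeR adjusted p, so the order by edgeR differed from the authors' listing. In lithium against control at 14 days, *Kcnab2* was listed with a log2 difference of 0.96, and *Kcng2* was not listed with 0.74. In lithium-amiloride against control at 28 days *Kcnk3* was listed with -1.06 and *Cacna2d2* was not listed with 0.61. Of the members, 6 at 14 days, 6 at 28 days and 7 at 6 months were too low to be tested. *Clcn1*, *Clic6*, *Hcn4* and *Kcnv1* were in each of these sets. The remaining members were listed by 1 or 2 studies and are given by the counts above.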

How the data were processed

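Cortex RNA of 47 rats was sequenced by the authors from stranded libraries. The submitters' processing notes name cutadapt 0.2.6, HISAT2 2.1.0, featureCounts 2.0.0 and the rat build Rnor_6.0, and the paper's methods give other versions of the trimming and counting tools. The strand setting of the counting is not given in the sources used here. The authors deposited raw read counts per gene for each study, without normalization. The deposited tables of differing genes also hold a mean normalized signal per gene, used here only to find which libraries stand behind each table. Their fold change and p-value columns hold the authors' own comparisons and were not used. All count columns were matched to a sample, and 0 were left unused.

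Counts were fitted per study with edgeR 4.0.16 in R 4.3.3 (filterByExpr, TMM scaling, quasi-likelihood test, 3 groups in 1 fit, Benjamini-Hochberg over all genes tested). CPM values are counts per 1000000 on the TMM scale of that study, so levels are not compared across studies or between genes, since gene lengths were not used. The fit was also run on simulated counts with known changes, and the outcome is not given here. Genes with few reads were not among those changed, so nothing is read from that run about such genes. Tables were made with Python 3.11.15 and pandas 2.3.3, and plots with matplotlib 3.10.9. The p-values measure the spread between the rats sampled.

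Alternatives were DESeq2 1.42.0 size factors, its Wald test, no filter on low counts, no fold threshold, all deposited libraries, the replicate number as a block, the 6-month labels as deposited and leaving out each library in turn. Replicate numbers did not pair the samples. Genes were named when listed in all 3 studies, when among the 3 largest rises or falls listed in a comparison with a group mean of at least 1 CPM, when among the known nephron channels on a list, or when next to the listing threshold. Marker lists were used for each cortex cell type, and results are given for some of those that moved. Only markers with a symbol in the authors' tables of differing genes could be followed. The members and lists were chosen with earlier results of these data known. Some genes of the rule and of the lists are not reported here by name, and stay in the counts.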

Additional observations from a re-analysis of the deposited data

Results flagged for a closer look

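Among 264 groups of 4 to 6 libraries of the named genes, 19 held a library far from the others, where chance alone flags about 1 in 20. The library 28-day control 1 accounts for 7 of them. It held 8.3 CPM of *Hcn2* (3.23 to 4.22 in the other controls), 8.19 CPM of *Kcnc4* (2.26 to 3.94) and 143 CPM of *Kcnj1* (33.4 to 56.1). It also held 1.46 CPM of *Kcnma1* (0.329 to 0.644), 34.1 CPM of *Kcnq1* (19.6 to 22.2), 33.8 CPM of *Trpm6* (14.7 to 21.1) and 118 CPM of *Trpm7* (64.6 to 81). Its intercalated cell markers summed to 965 CPM against 417 to 592 in the other controls, and their part in these values was not tested.

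Among 14-day libraries, control 4 was low in *Ano2* at 3.05 CPM, and lithium-amiloride 1 was low in *Clcn5* at 36.2 CPM, *Clic1* at 102 CPM and *Trpc1* at 9.37 CPM. Lithium 5 was low in *Clic5* at 87.9 CPM, and lithium 4 was high in *Kcnk5* at 128 CPM. Among 28-day libraries, lithium-amiloride 5 was high in *Kcne1* at 0.925 CPM, lithium-amiloride 1 in *Kcnj13* at 1.68 CPM, lithium 2 in *Kcnj12* at 55.6 CPM and lithium 1 in *Kcnk3* at 12.2 CPM, while lithium 5 was low in *Trpv4* at 111 CPM. At 6 months labelled control 4 was high in *Kcnn4* at 2.08 CPM.

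The library 14-day lithium-amiloride 2, which only the alternative with all deposited libraries uses, held 21.7 CPM of *Ano1*, 5.8 CPM of *Kcnj11* and 129 CPM of *Kcnk3*. The other 14-day libraries held at most 11.4, 3.61 and 3.49 CPM of these genes. Its adipocyte markers summed to 1976 CPM.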

How the results depend on the processing

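Of the 112 comparisons of named genes that were called, 81 kept their call under every alternative and 0 reversed. Another scaling (DESeq2 size factors) and the DESeq2 Wald test ended 0 of these calls, no filter on low counts ended 1 and all deposited libraries ended 16. The counts of channel genes called moved by more than 1.5 times in these cases, and the cause was not tested. With all deposited libraries, 3 in place of 5 were called in lithium-amiloride against lithium at 14 days, 8 in place of 16 in lithium against control at 6 months, 2 in place of 4 in lithium-amiloride against lithium at 6 months, and 6 in place of 10 in the latter comparison across studies. The DESeq2 Wald test called 2 in place of 0 at 28 days and 10 in place of 4 at 6 months in lithium-amiloride against lithium. With the 6-month labels as deposited, the calls across studies were 38 in place of 66 (lithium against control), 3 in place of 10 (lithium-amiloride against lithium) and 23 in place of 77 (lithium-amiloride against control).

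Same-numbered libraries did not deviate together, with correlations that ran in the 14-day study from -0.116 to 0.255, in the 28-day study from -0.187 to 0.236 and in the 6-month study from -0.22 to 0.0413. With the replicate block, 17 of the 112 calls were lost, and the counts were 3 in lithium-amiloride against lithium at 14 days, 9 in lithium against control and 1 in lithium-amiloride against lithium at 6 months, and 6 in the latter comparison across studies.

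Leaving out each library in turn gave 22 to 29, 2 to 6 and 22 to 25 calls at 14 days (lithium against control, lithium-amiloride against lithium, lithium-amiloride against control), 16 to 30, 0 to 1 and 25 to 40 in the 28-day study, and 8 to 16, 1 to 9 and 15 to 27 at 6 months. Across studies, with a gene counted once for every pair in which it was called, the ranges were 58 to 69, 7 to 12 and 72 to 80. The shares of all genes under each alternative are not given here, and nothing is read from these counts about channel genes in particular. Genes with few reads, such as *Kcne1* in lithium rats, limit the precision of the folds.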
